A study of Mus musculus with 23 samples.

Results

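The proteins of the cytosolic ribosome are encoded by ribosomal protein genes, and 80 of these were measured here in mouse brain. They are the genes whose symbols follow the Rpl, Rps and Rplp naming scheme or are Rpsa, are annotated as protein coding, and had a mean of at least 10 normalized counts over 23 libraries. Of 83 protein-coding genes whose names match, 81 had a value in the table and 80 met the mean, out of 18578 genes in the table and 17118 tested. Rpl3l had a mean of 8.67 and was left out, Rpl10l and Rpl39l were not analysed here, and kinases of the Rps6k family and named pseudogenes are not members. Grouped by symbol alone, paralogs such as Rpl7l1 included, the 80 comprise 45 genes of the large subunit, 32 of the small subunit and 3 of the stalk of the large subunit. The lowest value of any member in any library was 45.56 normalized counts, for Rps27.

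The study sequenced brain RNA of male C57BL/6J mice with or without foot-shock, a brief electric current applied through the cage floor. The gene edited in some of them, Grin2b, codes for a subunit of NMDA-type glutamate receptors, and its allele is named C456Y. There were 6 libraries of heterozygous mice given foot-shock (HT shock), 6 of heterozygous controls (HT control), 5 of wild-type mice given foot-shock (WT shock) and 6 of wild-type controls (WT control). The labels call the HT genotype heterotype and give postnatal day 17, whereas the series text speaks of heterozygous mice and of adult ages, so age is unresolved. Neither the brain region, the time after shock nor whether each library came from its own animal is stated, so the p-values speak of variation among libraries, part of which may be technical. Totals per library ran from 30.98 M (mega) to 32.57 M, and how deeply each library was sequenced is unknown. In these bulk samples fewer cells of a type and less RNA per cell cannot be told apart.

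A ribosome has a small subunit, which reads the mRNA, and a large subunit, which joins amino acids. Most ribosomal protein mRNAs are short and abundant, and many begin at a C followed by a run of pyrimidines, the terminal oligopyrimidine or TOP sequence. TOP mRNAs are known for being translated together when growth signals reach the mTOR kinase, and in neurons ribosome supply is tied to the protein synthesis that synapses need. Rps6, a protein of the small subunit, is the best known substrate of S6 kinases and its phosphorylation is a common readout of neuronal activity. Rpl5 and Rpl11 form a particle with 5S ribosomal RNA, and when unassembled they bind the p53 regulator Mdm2.

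RefSeq start regions (GRCm38.p6) were matched for 60 of the 80 genes, in 71 annotated windows running from 250 bases before to 50 bases after a start. The following 30-base windows, 20 bases before and 10 from the annotated start, are shown with the longest pyrimidine run in capitals. Rpl35, Rpl12 and Rpl5 are called members described below, Rpl11 is the partner of Rpl5, Rps6 and Rps15a led other comparisons, and Rps27 has a copy that holds most of the shared counts. Rpl21, the remaining called member, is not among the matched genes.
Rpl35, minus strand, chr2:39005122-39005151: gaagtcggccccgCCCTTTCCTCTTTCTCT
Rpl12, plus strand, chr2:32961692-32961721: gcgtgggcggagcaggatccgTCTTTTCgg
Rpl5, plus strand, chr5:107900508-107900537: CTCTTTCTCacgtcgcttgcgtgctggtgg
Rpl11, minus strand, chr4:136053384-136053413: gCCTCCTgacccataaggccacggggccgg
Rps6, minus strand, chr4:86857358-86857387: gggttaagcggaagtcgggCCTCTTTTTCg
Rps15a, minus strand, chr7:118116138-118116167: gcccaCTCTCTTTCTgccatcttccctcgc
Rps27, minus strand, chr3:90213639-90213668: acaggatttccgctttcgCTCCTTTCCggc
In Rpl35 the pyrimidine run is 17 bases long and crosses the annotated start, and in Rps6 it is 10 bases long. In Rpl5, by contrast, the run of 9 bases ends before the annotated start, so the annotated base decides whether a window counts. A C at the annotated start followed by at least 4 pyrimidines was found in 13 of the 71 windows (18.3%), against 2.51% of all 32851 windows. Searched on both strands, CCGGAAG, the core of the site bound by ETS factors, was in 36.6% of member windows and 8.86% of all windows. AAGATGGCG, the core of the YY1 site, was in 8.45% and 1.4%, GGGCGG in 62% and 35.7%, and TATAAA in 9.86% and 13.6%; matches of different motifs may overlap. The 13 genes with such a start had a median log2 difference of 0.089 between HT shock and WT shock, against 0.083 for the 47 matched genes without one.

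In shocked mice, ribosomal protein mRNAs were mostly a little higher in HT than in WT brain, as were other short mRNAs. Rpl35, Rpl12, Rpl21 and Rpl5, all proteins of the large subunit, rose in HT shock against WT shock at an adjusted p under 0.05 (limma, Benjamini-Hochberg over the 17118 genes), and 0 members fell. That is 4 of 80 members, while 9.28% of all genes tested passed, 3.95% higher and 5.33% lower. Upper-quartile scaling of the libraries put the all-gene split at 920 higher and 875 lower, against 676 and 913 as deposited. The median member difference on the log2 scale was 0.089, with 74 members positive and 6 negative, while the median of all genes was 0.004. Members moved together, with 2 of them above their own median in WT control replicate 4 and 79 in HT control replicate 6. Positive members, here and below, are thus not independent of each other. Other genes with transcripts under 600 bases had a median of 0.077. After the correction for transcript length and GC content described below, the member median was 0.012. Members ranged from -0.207 for Rpl10 to 0.305 for Rpl12. At an unadjusted p under 0.05, 24 members were higher and 1 lower, beside 13.1% and 14.8% of all genes.

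Rpl35 (ENSMUSG00000062997, GRCm38 chromosome 2, 39001580 to 39005624, minus strand), which sits near the exit of the peptide tunnel, had the smallest p of the members. Its normalized counts were lowest at 2726, with a median of 2772 and a highest of 3082, in HT shock. In WT shock they were 2435, 2141, 2484, 2343 and 2342. Every HT shock library lay above every WT shock library, and replicate 2 stood above the other HT shock libraries. The log2 difference was 0.26 ± 0.06 (SE; 20.1% higher, 95% interval 0.13 to 0.40, limma adjusted p = 0.016). Its range was 2188 to 2724 in HT control and 2126 to 2870 in WT control.

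Rpl21 (chromosome 5, 146832890 to 146837032, plus strand) had 6948 to 7549 normalized counts in HT shock with a median of 7378. The WT shock libraries had 6579, 6637, 6357, 6549 and 6844, all below the HT shock range. Its difference was 0.16 ± 0.05 (SE; 11.4% higher, limma adjusted p = 0.0457). Rpl21 had 6153 to 7732 normalized counts in HT control, a range that spans the HT shock libraries.

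Rpl5 (chromosome 5, 107900502 to 107909005, plus strand) had 1281 to 1407 normalized counts with a median of 1366 in HT shock. In WT shock it had 1275, 1174, 1165, 1284 and 1218. The groups touched, since 1 HT shock library lay just below the highest WT shock library. The difference was 0.15 ± 0.05 (SE; 10.8% higher, limma adjusted p = 0.0493). Rpl11, its partner in the 5S particle, was named after its values were seen: 4632 to 5342 normalized counts in HT shock and 4213 to 4694 in WT shock. The groups overlapped, and at 0.17 ± 0.06 (SE) Rpl11 did not pass (limma adjusted p = 0.0594).

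Rpl12 (chromosome 2, 32961559 to 32965345, plus strand), a protein at the base of the stalk, had 395.1 to 459.1 normalized counts with a median of 417.2 in HT shock. In WT shock it had 376.3, 405.7, 302.3, 283.2 and 343.3. The WT shock libraries were the more scattered, and 1 of them lay inside the HT shock range. Its difference was the highest of the members, at 0.31 ± 0.09 (SE; 23.6% higher, limma adjusted p = 0.0383). Most normalized counts of the Rpl12 coding sequence were listed under another gene, as described below for near-identical copies.

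When each of the 23 libraries was left out in turn, Rpl35 passed in all 23 fits (limma adjusted p = 0.00301 to 0.049). Rpl12 passed in 16 (0.012 to 0.103), Rpl21 in 9 (0.0101 to 0.105) and Rpl5 in 6 (0.0232 to 0.12). The log2 differences were positive in all of these fits, at 0.23 to 0.29 for Rpl35, 0.24 to 0.37 for Rpl12, 0.14 to 0.17 for Rpl21 and 0.13 to 0.17 for Rpl5.

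**Figure D1:**
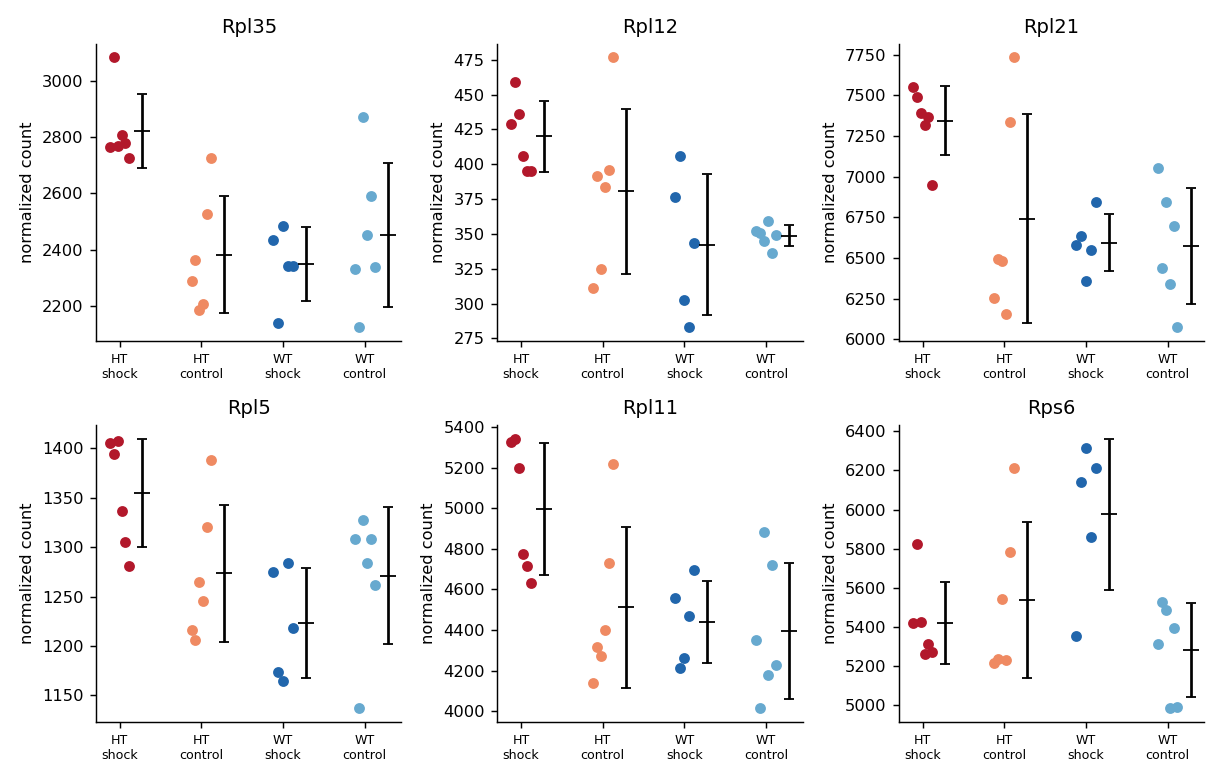
Normalized counts (vertical axes, which do not start at 0) of Rpl35, Rpl12, Rpl21, Rpl5, Rpl11 and Rps6 in each library of HT shock, HT control, WT shock and WT control; points are libraries, and bars show the mean and SD. All 6 HT shock libraries of Rpl35 lie above all 5 WT shock libraries, while the mean of Rps6 is highest in WT shock, at 5976.

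Whether called or not, 7 members had no overlap between HT shock and WT shock, all higher in HT shock: Rpl14, Rpl18, Rpl21, Rpl23, Rpl35, Rplp2 and Rps16. This is 8.75% of members, against 3.75% of all genes higher and 4.82% lower without overlap. By subunit, the median log2 difference was 0.098 for the 45 large-subunit genes, 0.082 for the 32 small-subunit genes and 0.108 for the 3 stalk genes. Of the large-subunit genes 42 were positive, of the small-subunit genes 29 and of the stalk genes 3.

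The stalk, which recruits the elongation factors, is made of Rplp0 and pairs of Rplp1 and Rplp2. None of the 3 genes passed between HT shock and WT shock: Rplp0 differed by 0.07 ± 0.05 (SE), Rplp1 by 0.11 ± 0.07 and Rplp2 by 0.14 ± 0.06 (limma adjusted p = 0.357, 0.357 and 0.124). Rplp2 had 3503 to 3662 normalized counts in HT shock, against 3001 to 3461 in WT shock. Rplp1 had the highest level per length of all members, with 16200 normalized counts per kilobase of transcript in HT shock, 15700 in HT control, 15100 in WT shock and 14800 in WT control. Rpl41 and Rps15 followed, with 12490 and 12120 per kilobase over all libraries, against a member median of 5482. The lowest levels per length were those of Rps27l at 419.8, Rps27 at 304.8 and Rpl12 at 301.3, and for Rps27 and Rpl12 copies held most of the shared reads. Rpl41 (0.12 ± 0.07, adjusted p = 0.324) and Rps15 (0.08 ± 0.06, adjusted p = 0.412) did not pass in limma between HT shock and WT shock.

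Rpl22 and Rpl22l1, Rpl7 and Rpl7l1, and Rps27 and Rps27l are pairs of paralogs in which both genes are members. Rpl22, which binds RNA in the large subunit, had 4618 normalized counts per kilobase and Rpl22l1, which can take its place, had 1697. Rpl7 had 4964 per kilobase and Rpl7l1 965.4. Between HT shock and WT shock Rpl7l1 had 1235 to 1387 normalized counts in HT shock, against 1202, 1077, 1004, 1331 and 1042 in WT shock. That is a difference of 0.21 ± 0.08 (SE, limma adjusted p = 0.0775), while Rpl7 differed by 0.09 ± 0.05 (adjusted p = 0.201). Rpl22l1 differed by 0.11 ± 0.07 and Rpl22 by 0.02 ± 0.05, and neither passed (limma adjusted p = 0.302 and 0.822). Rps27l differed by -0.08 ± 0.09 and Rps27 by 0.13 ± 0.50 (limma adjusted p = 0.617 and 0.894).

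Of the 6 members that were lower in HT shock, Rps6 had the smallest p and was named here after its values were seen. It had 5262 to 5823 normalized counts with a median of 5366 in HT shock, against 5355, 6141, 6315, 5860 and 6211 in WT shock. WT shock replicate 1 lay inside the HT shock range and the other WT shock libraries lay above it. The difference was -0.14 ± 0.05 (SE, limma adjusted p = 0.062). WT control libraries had 4983 to 5529 normalized counts of Rps6. Between WT shock and WT control Rps6 had the smallest p of the members, at a difference of 0.18 ± 0.05 (limma adjusted p = 0.998). The processed pseudogene Rps6-ps4, whose sequence matches the whole Rps6 coding sequence, was high in the shocked group where Rps6 was low. It was listed at 1300, 959, 1118, 1193, 1233 and 1151 normalized counts in HT shock, against 816.4, 237.8, 0, 514.5 and 251 in WT shock. Summed with Rps6-ps4, Rps6 had 6423 to 6782 in HT shock and 6171 to 6462 in WT shock, a difference of 0.05 ± 0.04 (limma adjusted p = 0.437). The sum differed by -0.004 ± 0.042 between WT shock and WT control (adjusted p = 0.998) and by 0.08 ± 0.06 in the interaction (limma adjusted p = 0.816). The sign of the Rps6 difference thus turned in these 3 comparisons when both genes were added.

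Near-identical copies touch many members. In the table, 34 of the 80 members had at least 1 other gene with at least 95% identity over at least 90% of their coding sequence, 42 copies in all, and 46 had none. Copies held more of the summed normalized counts than the member itself for 5 genes. Their shares were 95.42% for Rps27, 91.55% for Rpl12, 82.69% for Rpl10, 80.31% for Rpl5 and 53.94% for Rps23. Of the 4 called members, Rpl12 and Rpl5 are among these 5, while the copies of Rpl21 held 18.54% and those of Rpl35 14.99%. Gm10275 is 100% identical over the 495 bases of the Rpl12 coding sequence, and Gm15500 is 100% identical over the 891 bases of Rpl5. Gm10275 differed by 0.11 ± 0.05 and Gm15500 by 0.13 ± 0.05 between HT shock and WT shock (limma adjusted p = 0.182 and 0.0957).

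**Figure D2:**
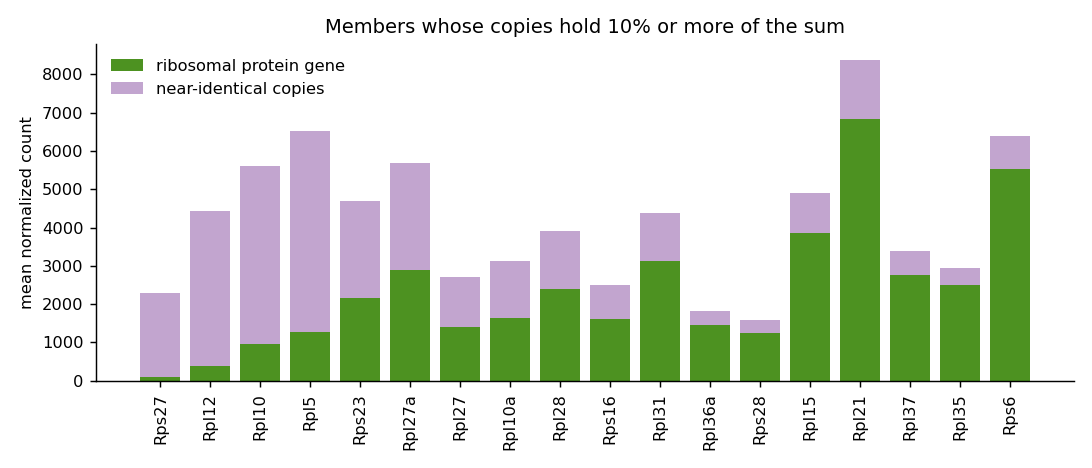
Mean normalized count over 23 libraries (vertical axis, from 0) of members whose near-identical copies hold 10% or more of the summed counts; the lower part of each bar is the ribosomal protein gene and the upper part its copies. The bars of Rps27, Rpl12, Rpl10 and Rpl5 consist mainly of copies.

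Within the coding sequence, only reads over differing bases can separate a copy from its member. Shown are 60 bases of each member's coding sequence, counted from the A of its start codon, above the aligned stretch of a transcript of its copy (GENCODE M21, GRCm38). They run from base 87 to base 146 of Rpl35, with the copy Gm2000 on chromosome 1. For Rpl21 they run from base 374 to base 433, with the copy BC004004 on chromosome 17. Capitals mark the differing bases.
Rpl35: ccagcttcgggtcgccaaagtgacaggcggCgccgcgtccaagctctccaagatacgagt
Gm2000: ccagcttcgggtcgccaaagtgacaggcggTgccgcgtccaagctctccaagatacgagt
Rpl21: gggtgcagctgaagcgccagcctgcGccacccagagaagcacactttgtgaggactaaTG
BC004004: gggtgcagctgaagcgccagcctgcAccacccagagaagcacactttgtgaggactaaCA
The Rpl35 coding sequence and the aligned Gm2000 transcript differ by C117T alone, the member's base being given first. Rpl21 and BC004004 differ at 7 bases of their alignment, of which G399A, T432C and G433A are in the stretch shown. Gm2000 had 343.9 to 538.9 normalized counts in HT shock, against 426.8 to 513.9 in WT shock (-0.13 ± 0.15, limma adjusted p = 0.617). BC004004 had 1397 to 1660 in HT shock, against 1359 to 1621 in WT shock (0.04 ± 0.06, limma adjusted p = 0.656).

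Summed with copies, 1 member passed between HT shock and WT shock, beside 3.95% of all genes higher and 5.34% lower. Rpl35 with its copies differed by 0.21 ± 0.07 (SE, limma adjusted p = 0.0459). Rpl21 (0.14 ± 0.05, adjusted p = 0.0552), Rpl5 (0.13 ± 0.05, adjusted p = 0.0675) and Rpl12 (0.13 ± 0.05, adjusted p = 0.124) no longer passed in limma. Of the 46 members without a copy, 0 passed in limma. At an unadjusted p under 0.05, 10 of them were higher and 0 lower, beside 13.1% and 14.8% of all genes. The median difference of these 46 members was 0.086 and 44 were positive. Among the copies themselves, 34 were tested and 1 passed, beside 3.95% of all genes higher and 5.33% lower. This was Rpl31-ps8, identical to the Rpl31 coding sequence. It had 1158 to 1509 normalized counts in HT shock and 953.5 to 1199 in WT shock (0.32 ± 0.08 SE, limma adjusted p = 0.0183). Rpl31 summed with its copies differed by 0.14 ± 0.06 (limma adjusted p = 0.127). Rpl10 alone differed by -0.21 ± 0.18, and with its copies by 0.02 ± 0.04 (limma adjusted p = 0.492 and 0.755).

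The other comparisons asked what shock changed in heterozygous and in wild-type brain, what the allele changed without shock, and whether the effect of shock depended on genotype. By limma at an adjusted p under 0.05, 0 members passed in any of these 4 comparisons, beside 0% of all genes tested. Each group enters more than 1 comparison, so the values of comparisons that share a group are not independent of each other.

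**Figure D3:**
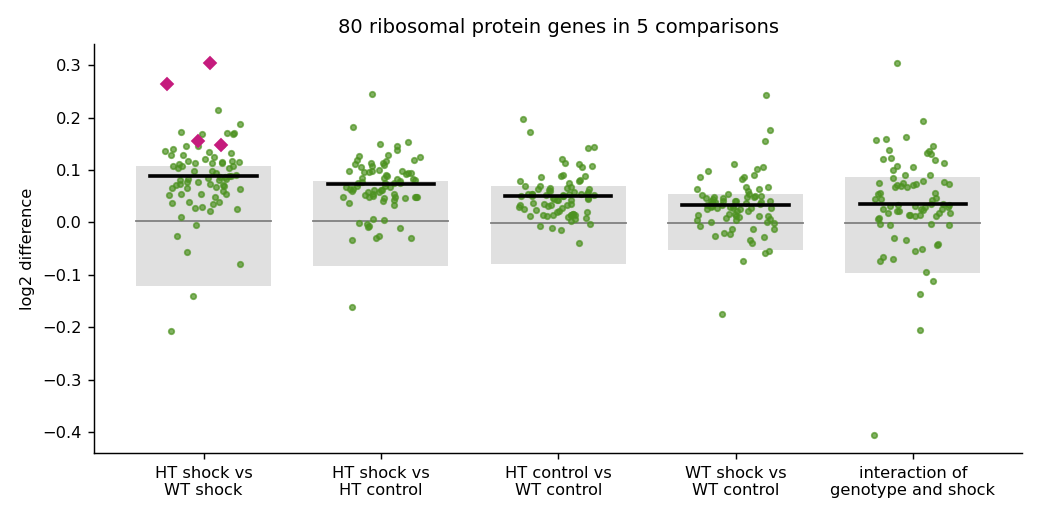
Log2 difference (vertical axis) of each of the 80 ribosomal protein genes in the 5 comparisons (horizontal axis); diamonds passed the test, the black line is the member median, and the grey box and line are the interquartile range and median of all genes tested. The member median lies above the median of all genes in each comparison, at 0.089, 0.072, 0.050, 0.033 and 0.035 from left to right.

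Between HT shock and HT control the median member difference was 0.072, with 70 members positive and 10 negative, and the median of all genes was 0.003. Rpl35 again had the smallest p, with 2726 to 3082 normalized counts in HT shock and 2188 to 2724 in HT control. It was the 1 member whose groups did not overlap, beside 0.181% of all genes higher and 0.105% lower. The difference was 0.25 ± 0.06 (SE, 18.6% higher, limma adjusted p = 0.212). Rpl21 (0.13 ± 0.05) and Rpl11 (0.15 ± 0.06) came next, and Rpl10 (-0.16 ± 0.17), Rps6 (-0.03 ± 0.05) and Rpl27 (-0.03 ± 0.06) were the lower members with the smallest p. At an unadjusted p under 0.05, 12 members were higher and 0 lower, beside 7% and 6.74% of all genes.

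The count of calls changed without HT control replicate 6. Its mean log2 deviation over the 80 members from the 23-library mean was 0.223, it was the highest library for 64 members, and 79 members lay above their own median there. Beside this, its deviation was 0.187 over nuclear-encoded respiratory chain genes and 0.106 over translation factors and other genes with TOP mRNAs. It was 0.080 over ribosome biogenesis genes and -0.040 over growth signalling genes. Over other genes with transcripts under 1000 bases it was 0.072, over genes of at least 5000 bases -0.170 and over mitochondrially encoded genes -0.294. Over markers it was 0.515 for microglia, 0.643 for choroid plexus, 0.478 for red cells and 0.380 for dividing cells. For endothelium it was 0.046, for neurons -0.062, for astrocytes -0.077 and for oligodendrocytes -0.088. The part of these genes in its member values was not tested. Because this library was high in the members themselves, leaving it out raises their difference between HT shock and HT control. With any other library left out, 0 members passed in that comparison. Without HT control replicate 6, 19 members passed there, all higher (limma adjusted p under 0.05), and 0 were lower. Of all genes, 4.49% were then higher and 7.58% lower. At an unadjusted p under 0.05 the count was 51 higher and 0 lower, beside 12.6% and 15.1% of all genes. The median was then 0.114, with 77 members positive and 3 negative. Rpl35 (0.29 ± 0.06, adjusted p = 0.00398), Rpl21 (0.17 ± 0.04, adjusted p = 0.00992), Rpl17 (0.20 ± 0.05, adjusted p = 0.0127), Rpl11 (0.19 ± 0.05, adjusted p = 0.0143) and Rpl13a (0.21 ± 0.06, adjusted p = 0.0147) led in limma. Small-subunit genes among the 19 included Rpsa (0.14 ± 0.04, adjusted p = 0.0226), whose protein is also known as a laminin receptor. Between HT shock and WT shock that library enters only through the shared estimate of the spread. There 15 members then passed, 14 higher and 1, Rps6, lower, beside 7.1% of all genes higher and 9.98% lower. Members were taken here without their copies, and with all libraries Rps6 summed with Rps6-ps4 differed by 0.05 ± 0.04.

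Per group, the mean deviation over the members was 0.068 ± 0.051 (SD, n = 6) in HT shock, -0.001 ± 0.138 (n = 6) in HT control, -0.019 ± 0.040 (n = 5) in WT shock and -0.052 ± 0.070 (n = 6) in WT control. HT shock replicates 1 to 5 lay between 0.064 and 0.123 and replicate 6 at -0.024, inside the range of WT shock (-0.065 to 0.029). HT control spread widest, from -0.134 in replicate 1 to 0.223 in replicate 6. Members summed to between 0.931% and 1.24% of the library totals, the lowest in WT control replicate 4 and the highest in HT control replicate 6.

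**Figure D4:**
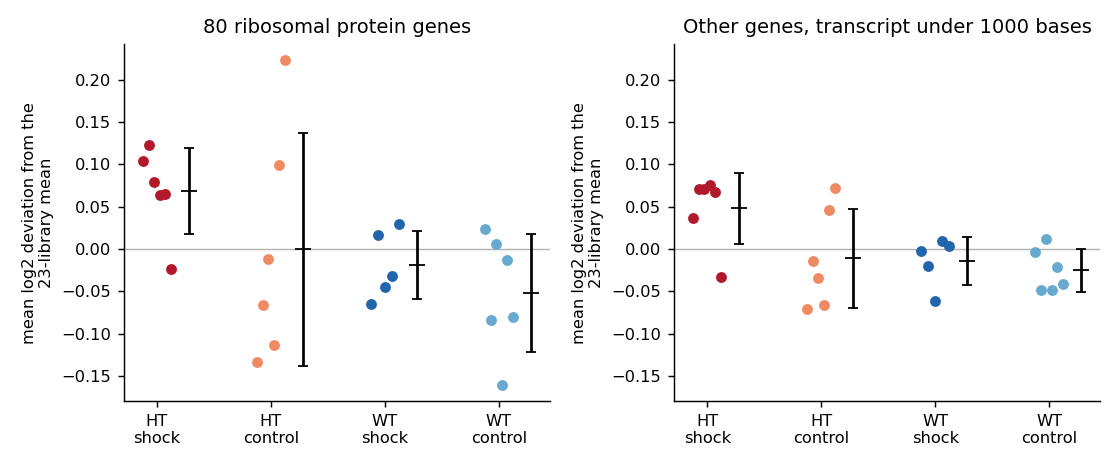
Mean log2 deviation from the 23-library mean (vertical axes) of the 80 ribosomal protein genes and of the other genes with a transcript under 1000 bases, for each library of HT shock, HT control, WT shock and WT control; points are libraries, and bars show the mean and SD. In both panels 5 of 6 HT shock libraries lie above all WT shock libraries, and HT control replicate 6 is at 0.223 for the members and 0.072 for the other short genes.

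Between HT control and WT control the median member difference was 0.050, with 75 members positive, and the median of all genes was -0.001. The smallest p values belonged to Rps15a (3735 to 5027 normalized counts in HT control and 3451 to 4490 in WT control; 0.17 ± 0.07), Rpl37 (0.14 ± 0.06) and Rpl13 (0.11 ± 0.05), with limma adjusted p = 0.404, 0.412 and 0.421. The lower members with the smallest p were Rpl35 (-0.04 ± 0.06), Rpl13a (-0.01 ± 0.07) and Rpl17 (-0.01 ± 0.06). In this comparison 3 members were higher and 0 lower at an unadjusted p under 0.05, beside 4.96% and 6.11% of all genes. Without HT control replicate 6 the median was 5e-04, with 42 members positive and 38 negative, and 0 members passed, as did 0% of all genes. At an unadjusted p under 0.05, 0 members were then higher or lower in limma, beside 3.02% and 3.14% of all genes. The groups overlapped for all 80 members, while 0.187% of all genes were higher and 0.234% lower without overlap.

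Other lists stood away from 0 between HT control and WT control too, although none of their genes passed in limma. At an unadjusted p under 0.05, 4.96% of all genes were higher and 6.11% lower there. All 5 choroid plexus markers were positive, with a median of 0.512 and 3 higher at an unadjusted p under 0.05. All 5 microglial markers were also positive, with a median of 0.299 and 0 higher at that p. So were all 5 red cell markers (median 0.164), 4 of 5 of dividing cells (0.222) and 4 of 5 of endothelium (0.092). Of these, 1 endothelial marker was higher at that p. Medians were negative for neurons (-0.028), astrocytes (-0.021) and oligodendrocytes (-0.104), with 1, 2 and 0 markers higher and 2, 0 and 1 lower at that p. The 13 mitochondrially encoded genes were all negative, with a median of -0.218 and 8 lower at that p. Of the 71 nuclear-encoded respiratory chain genes 66 were positive, with a median of 0.051 and 2 higher. Without HT control replicate 6 the medians were 0.392 for choroid plexus, 0.223 for microglia, -0.190 for mitochondrially encoded genes and 0.012 for the nuclear-encoded chain. The part of these lists in the member difference was not tested.

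Between WT shock and WT control the median was 0.033, with 64 members positive and 16 negative, and the median of all genes was -4.24e-04. Rps6, described above, led the higher members, followed by Rpl13 (0.09 ± 0.05) and Rps18 (0.10 ± 0.06). On the lower side Rpl7l1 (-0.18 ± 0.08), Rpl5 (-0.06 ± 0.05) and Rpl35 (-0.06 ± 0.06) had the smallest p, and all 6 had limma adjusted p = 0.998. At an unadjusted p under 0.05, 1 member was higher and 1 lower, beside 2.04% and 1.68% of all genes. Again no member was without overlap, and of all genes 0.164% were higher and 0.21% lower without it.

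The interaction is the shock difference in HT minus that in WT. Its member median was 0.035, with 62 members positive and 18 negative, and 0.086 without HT control replicate 6. Rpl35 (0.30 ± 0.09, limma adjusted p = 0.552), Rpl5 (0.15 ± 0.07, adjusted p = 0.771) and Rpl17 (0.16 ± 0.09, adjusted p = 0.780) had the smallest p on the higher side. Rps6 (-0.21 ± 0.07, adjusted p = 0.658), Rpl10 (-0.41 ± 0.25, adjusted p = 0.790) and Rpl27 (-0.14 ± 0.09, adjusted p = 0.805) had the smallest on the lower side in limma. In the interaction 2 members were higher and 1 lower at an unadjusted p under 0.05, beside 3.51% and 2.92% of all genes. Without HT control replicate 6 the count was 18 higher and 1 lower, beside 6.5% and 7.94% of all genes, and 0 members passed at an adjusted p under 0.05 (limma, smallest adjusted p = 0.129).

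The members share short transcripts, and short genes that are no members moved with them. The median annotated transcript length was 705 bases for members, of which 62 (77.5%) were under 1000 bases, against 2684.5 bases and 10.3% for all genes. Between HT shock and WT shock the median log2 difference of other genes was 0.077 under 600 bases, 0.082 from 600 and 0.082 from 1000 bases, 0.042 from 1500, -0.001 from 2500, -0.060 from 4000 and -0.128 from 6000 bases upward, each class ending where the next begins. Members had medians of 0.079 under 600 bases (30 genes), 0.098 from 600 (32 genes), 0.125 from 1000 (12 genes) and 0.118 from 1500 bases (5 genes).

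**Figure D5:**
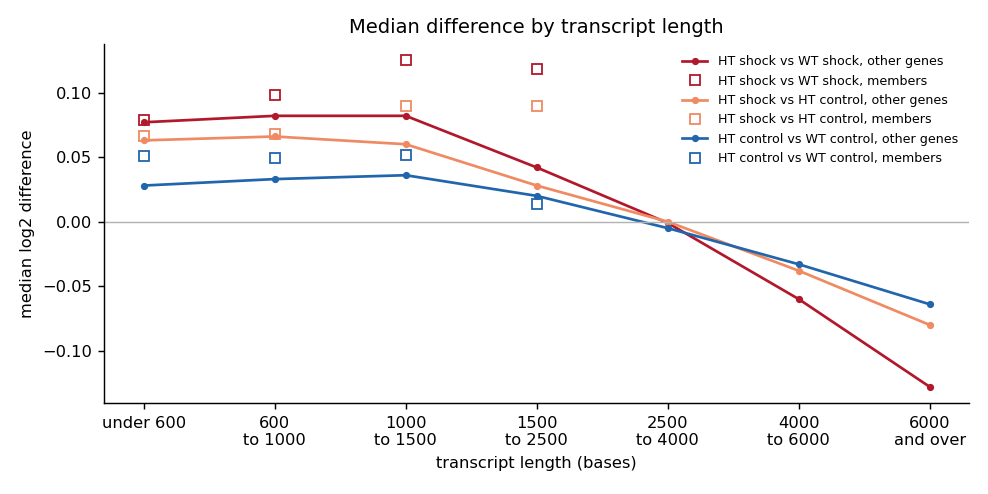
Median log2 difference (vertical axis) by annotated transcript length in bases (horizontal axis, classes not evenly spaced); lines are genes that are no members, open squares the ribosomal protein genes in classes with at least 5 of them, for HT shock against WT shock, HT shock against HT control and HT control against WT control. From 1500 bases the lines fall with length in the 3 comparisons, most for HT shock against WT shock (0.077 under 600 bases to -0.128 from 6000 bases).

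When each library was corrected for a smooth trend on transcript length and GC content, the member medians were 0.012 between HT shock and WT shock, 0.010 between HT shock and HT control, 0.022 between HT control and WT control, 0.019 between WT shock and WT control and -0.012 in the interaction. Of the members, 45 were then positive and 35 negative between HT shock and WT shock. Rpl5 (0.18 ± 0.05, limma adjusted p = 0.0368) passed higher and Rps6 (-0.20 ± 0.04, adjusted p = 0.00497) lower, beside 2.65% of all genes higher and 3.21% lower. Both genes were taken here without their copies, Gm15500, which holds most of the summed counts of Rpl5, and Rps6-ps4. Without the length correction, Rpl5 did not pass and the sign of Rps6 turned when the copies were added, and sums were not corrected for length. Rpl35 (0.15 ± 0.05, adjusted p = 0.0849), Rpl12 (0.24 ± 0.08, adjusted p = 0.0788) and Rpl21 (0.06 ± 0.03, adjusted p = 0.176) did not pass in limma. The part of RNA quality or of library preparation in the length trend was not tested.

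Lists of related genes were read the same way between HT shock and WT shock. Of all genes tested, 3.95% were higher and 5.33% lower there at an adjusted p under 0.05. At an unadjusted p under 0.05 these shares were 13.1% and 14.8%. Of 19 translation factors and other genes with TOP mRNAs, such as elongation factors and the poly(A)-binding protein, 0 passed in limma, with a median of 0.080 and 15 positive, and 7 were higher and 1 lower at an unadjusted p under 0.05. Eef1a1, the factor that brings aminoacyl-tRNA to the ribosome, differed by 0.02 ± 0.03 (limma adjusted p = 0.74). Of 36 genes of ribosome biogenesis 6 rose and 0 fell, with a median of 0.106. Sbds, which helps release a factor that keeps the subunits apart, rose by 0.16 ± 0.04 (adjusted p = 0.0159), and Ubtf, a factor of ribosomal DNA transcription, by 0.19 ± 0.05 (adjusted p = 0.0204). Heatr1, of the machinery that processes the small-subunit rRNA, rose by 0.26 ± 0.07 (adjusted p = 0.0221) and Gar1, of the RNA-guided pseudouridine enzymes, by 0.35 ± 0.09 (adjusted p = 0.0257), all by limma.

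Of 20 genes that signal growth to the ribosome, 1 rose and 1 fell, beside 3.95% of all genes higher and 5.33% lower. The median of these 20 genes was -0.013. Myc, a transcription factor known to raise ribosome production, rose by 0.48 ± 0.12, and Deptor, an inhibitor of mTOR, fell by 0.24 ± 0.07 (limma adjusted p = 0.0229 and 0.0357). Mtor itself differed by 0.06 ± 0.06 (limma adjusted p = 0.535), and Rps6kb1, an S6 kinase, by -0.13 ± 0.07 (adjusted p = 0.237). Of 71 nuclear-encoded subunits of the respiratory chain, another group of short and abundant mRNAs, 8 rose and 0 fell, with a median of 0.106. Of 13 mitochondrially encoded genes 0 rose and 6 fell, with a median of -0.152. Members of these lists passed in 0 cases in the other 4 comparisons.

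Cell markers moved beside the members, in a comparison where 3.95% of all genes passed higher and 5.33% lower. Of 5 oligodendrocyte markers 4 fell between HT shock and WT shock, with a median of -0.276, and the HT shock libraries had mean deviations of -0.305 to 0.027, against -0.015 to 0.317 for WT shock. Of 7 neuronal markers Slc17a7, the vesicular glutamate transporter of cortical neurons, rose (0.25 ± 0.05, limma adjusted p = 0.0045) and Gad2, of GABA neurons, fell (-0.20 ± 0.06, adjusted p = 0.038). For the neuronal list these deviations were -0.019 to 0.074 in HT shock, against -0.080 to 0.038 in WT shock. By limma none of the 5 markers each of astrocytes, microglia, endothelium, choroid plexus, red cells and dividing cells passed, with medians of -0.115, 0.076, -0.168, 0.043, -0.217 and -0.089. Of these lists, at an unadjusted p under 0.05 in limma, 3 astrocyte markers and 1 endothelial marker were lower and 0 were higher. Of all genes, 14.8% were lower and 13.1% higher at that p. Every marker gene was in the table, and the lowest mean of a list's genes ran from 13.34 normalized counts for dividing cells to 7570 for neurons. The part of cell composition in the member differences was not tested.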

How the data were processed

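Brain RNA of 23 mouse libraries was sequenced from stranded mRNA libraries, per the labels' protocols. The authors deposited normalized counts with decimals, a signal that is scaled between libraries and not per length. The submitters' processing notes name DESeq2 1.26.0, Salmon 1.1.0, R 3.6.2 and the build GRCm38, without roles. Per library, 25.6% to 62.8% of low values fell within 0.1 of whole multiples of a step, so whole reads were not recovered, depth is unknown and no count model was fitted. 1 of 24 library columns matched no sample and was not used.

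The 17118 genes whose mean reached 10 entered a test on log2(normalized count + 1) with limma 3.58.1 (trend and robust empirical Bayes, R 4.3.3), with the 4 groups in 1 fit and 5 comparisons, and Benjamini-Hochberg adjustment over all genes. A difference on this scale slightly understates that of low genes. The code was tested on simulated data. A library's deviation is the mean, over members, of its log2 value minus the gene's mean over the 23 libraries. Symbols, positions and transcript lengths are from GENCODE M21, using the shortest of the best-supported transcripts, and start windows are from RefSeq. Copies were found with BLAST 2.17.0, and the correction for length and GC content used mgcv 1.9.3.

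The members and the gene lists were chosen with earlier results of these data known. Named members are the called ones of a comparison, up to 8, or where none was called the 3 with the smallest p on each side, and always the stalk genes, paralog pairs and the 3 highest and 3 lowest per length. Of related lists, called genes were named, up to 4 a list. The values of 1 member on its own are not reported here. Rpl11, the copies, Rps6 between HT shock and WT shock, Rpl23 and the markers and list genes that did not pass were chosen after their values were seen. So were the sums with copies and the members with no copy, as alternatives. The others were median centring, upper-quartile scaling, no filter, a filter of 20 in at least 5 libraries, pseudocounts of 0.5 and 5, only the groups compared, the replicate number as a block, library weights, the length and GC correction, an adjusted p of 0.1 and leaving out each library.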

Additional observations from a re-analysis of the deposited data

Results flagged for a closer look

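In all, 104 groups of values were checked for a library far from the rest of its group, most of them values of the 25 named members. Of these groups 8 held one, and chance flags about 1 in 20 groups. In HT shock, replicate 2 was high for Rpl35 (3082 normalized counts, against 2726 to 2807 in the other replicates) and for Rps6 (5823, against 5262 to 5425), and replicate 6 was low for Rpl13a (7278, against 8192 to 8715). In HT control, replicate 6 was high for Rpl22 (2419, against 2026 to 2146), as it was for most members. Rps27 was high in WT shock replicate 3 (300.6, against 55.09 to 101.5) and in WT control replicate 6 (265.4, against 54.94 to 71.1). In WT control, replicate 2 was low for Rpl5 (1137, against 1262 to 1327) and high for Rpl10 (1676, against 667 to 841.8). Summed with their copies, 3 of these values lay inside the range of the other replicates. They were Rps27 in WT shock replicate 3 (2337, against 2100 to 2395) and, in WT control replicate 2, Rpl10 (5388, against 5030 to 5643) and Rpl5 (6206, against 5939 to 6832). The sum of Rps27 in WT control replicate 6 was the highest of its group but close to the next (2407, against 1872 to 2358). Rps6 in HT shock replicate 2 had the lowest copy count of that group, 959, and its sum was 6782, against 6423 to 6718. Rpl35 in HT shock replicate 2 stayed apart when summed (3629, against 3111 to 3275).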

How the results depend on the processing

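Between HT shock and WT shock, 4 members passed. The count was 2 under median centring (599 higher and 989 lower of all genes) and 2 under the length and GC correction. It was 25 with the compared groups only (24 higher, 1 lower), beside 7.33% of all genes higher and 9.8% lower. It was 23 with library weights (22 higher, 1 lower), beside 9.99% and 12.1%, and 12 at an adjusted p of 0.1 (11 higher, 1 lower), beside 8.1% and 9.96%. Summed with copies it was 1, beside 3.95% of all genes higher and 5.34% lower, and among members with no copy 0. With the replicate number as a block, it was 1 by the title numbers and 1 by the bracketed library numbers, with 450 and 976 genes passing in all, against 1589. Whether the numbers pair the libraries is unknown, and low correlations cannot exclude it. Deviations of libraries with the same title number correlated between -0.154 and 0.194 (median 0.016) over 33 pairs, 5 of them over 0.1. The median of other pairs was 0.004. By the bracketed numbers the range was -0.114 to 0.194 (median 0.017), with a median of 0.002 for other pairs. Leaving out 1 library gave 1 to 15 members: 1 without HT shock replicates 1, 2, 3 or 4 or WT shock replicates 3 or 5, 2 without HT control replicates 2 or 3, WT shock replicate 2 or WT control replicate 5, and 15 without HT control replicate 6. Rpl35 passed in each of these fits but the one corrected for length and GC content. Between HT shock and HT control 0 passed, but 31 with library weights (31 higher), beside 7.07% of all genes higher and 9.24% lower, and leaving out 1 library gave 0 to 19, the 19 without HT control replicate 6 and 0 without any other. In the other 3 comparisons the count stayed 0. The length and GC correction took the median difference between HT shock and WT shock from 0.089 to 0.012 and the interaction from 0.035 to -0.012. Library weights took it from 0.050 to 0.003 between HT control and WT control, from 0.072 to 0.110 between HT shock and HT control and from 0.035 to 0.086 in the interaction. With 1 library left out, the medians ran from 0.075 to 0.110 between HT shock and WT shock, 0.046 to 0.114 between HT shock and HT control, 0 to 0.073 between HT control and WT control, 0.006 to 0.050 between WT shock and WT control and 0.009 to 0.086 in the interaction. Under median centring 74 members were positive between HT shock and WT shock, and under upper-quartile scaling 75. Of 3125 values of named members, 53 lost and 15 gained the threshold. Of those past the threshold in neither fit, 105 changed sign.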
